A study of Mus musculus with 16 samples.

Results

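Dentate granule cell identity genes are transcripts that mark the principal neurons of the dentate gyrus (DG) of the hippocampus, and 9 of them are described here among the 24972 gene rows deposited for each library. The members were taken by symbol: Prox1, Dsp, C1ql2, Calb1, Stxbp6, Glis3, Plk5, Fam163b and Wipf3. All 9 were present in every library, none was listed at 0 in any library, and all 9 passed the filter on low values. They were chosen on known roles in granule cells and from earlier views of their normalized values by subregion and training in these libraries, so their levels by subregion are given as a description with no test, and the training results are not independent of that choice. The study asked how transcription in hippocampal subregions differs after a memory task between mice that learned to avoid a shock zone and mice that did not. All mice, of C57BL/6 background, carried ArcCreERT2::eYFPflx, in which the promoter of the activity-dependent gene Arc drives a tamoxifen-inducible Cre recombinase and Cre switches on a yellow fluorescent reporter, and all were 3 to 4 months old per the study's methods. The 3 trained mice learned active place avoidance, in which part of a rotating arena gives a foot shock, and the 3 untrained mice were placed in the same arena with the shock always off. Every mouse had a retention test with no shock 24 h after the last training session, and tissue was taken 60 min after that test. DG, CA3 and CA1 were cut from the dorsal hippocampus by hand, so each library holds whole tissue of a subregion and not sorted granule cells. The 16 libraries were CA1 from 3 trained and 3 untrained mice, CA3 from 3 trained and 2 untrained mice (untrained 1 and 2), and DG from 3 trained and 2 untrained mice (untrained 1 and 3).

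Granule cells receive cortical input through the perforant path and send mossy fibres to the pyramidal cells of CA3, which in turn project to CA1. They are born into adult life, and Prox1, a homeodomain transcription factor, is needed for them to form and to keep their identity apart from CA3 pyramidal cells. Calb1 encodes calbindin, a calcium buffer of mature granule cells, and C1ql2 encodes a secreted C1q-like protein found at mossy fibre synapses. Dsp encodes desmoplakin, which anchors desmosomes to intermediate filaments, and Glis3 encodes a zinc finger transcription factor of the GLI-similar family. Stxbp6 encodes amisyn, a protein that binds SNARE complexes, Wipf3 encodes a WASP-interacting protein that acts on actin, and Plk5 encodes a polo-like kinase found in neurons. Fam163b encodes a small protein of a family with few known functions.

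Values are normalized estimated counts as deposited, and they summed to between 7607326 and 7984931 per library. The original read depth is not known from these values. The number of genes listed at 0 split the libraries into 7 with 7567 to 9759 such genes (all 3 trained CA1, trained 1 and 2 of CA3, and both untrained DG) and 9 with 3124 to 5944. In CA1 it was the trained libraries that had many such genes and in DG the untrained ones, so within those subregions this property and training cannot be told apart. Xist, the RNA that coats the silenced X in female cells, was at 7601 to 19592 in all 9 trained libraries and at 10588 in CA3 of untrained mouse 1, and it was at 52.4 or lower in the other 6 untrained libraries. CA3 of untrained mouse 1 and DG of trained mouse 3 also held the Y-linked Ddx3y at 201 and 255, beside 448 to 553 in the 6 libraries with low Xist. Ddx3y was at 70.9 and 101 in CA1 of trained mice 1 and 3 and at 92.9 in CA3 of trained mouse 3, against 1.66 to 12.9 in the other 5 trained libraries, so lower amounts of it stood beside Xist in 3 more libraries. An alternative below leaves out the 2 libraries with Ddx3y above 150 and Xist above 1000, a limit set after seeing these values. The study's methods list both sexes in both groups, which the Xist levels of the trained libraries do not match, and within untrained mouse 1 the CA3 library held Xist while its CA1 and DG libraries were at 26.1 and 25.5. How these libraries relate to the labelled mice was not tested, so trained and untrained below mean libraries as labelled. Sex-linked transcripts and training nearly coincide, and the part of sex in the training differences was not tested beyond a fit with a sex-linked score, given with the pooled comparison. Nothing in the labels says that libraries with the same number came from mice of 1 litter or batch.

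Promoters are shown for Prox1 and Fam163b, whose profiles across the 16 libraries lay closest together of all pairs of members. The windows are the 250 bases before the RefSeq gene start (GRCm38.p6, minus strand for both), printed 5′ to 3′. Prox1 lies at chr1:190118035-190170714 and Fam163b at chr2:27110380-27142491 in the GENCODE annotation of GRCm38, both on the minus strand. The Prox1 window is chr1:190170828-190171077 and holds CAGATG, an E-box of NeuroD factors, shown in capitals from position -179 relative to the gene start. The Fam163b window is chr2:27142478-27142727 and holds TGACG, the core of the site of CREB factors, on the opposite strand, shown in capitals as CGTCA from position -105; the end of this window overlaps the GENCODE gene, whose start lies slightly upstream of that in RefSeq.
Prox1: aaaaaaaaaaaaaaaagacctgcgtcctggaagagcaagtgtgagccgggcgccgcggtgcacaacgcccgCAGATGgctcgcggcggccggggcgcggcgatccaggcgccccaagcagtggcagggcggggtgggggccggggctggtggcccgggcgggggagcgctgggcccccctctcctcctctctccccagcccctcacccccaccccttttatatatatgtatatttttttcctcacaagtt
Fam163b: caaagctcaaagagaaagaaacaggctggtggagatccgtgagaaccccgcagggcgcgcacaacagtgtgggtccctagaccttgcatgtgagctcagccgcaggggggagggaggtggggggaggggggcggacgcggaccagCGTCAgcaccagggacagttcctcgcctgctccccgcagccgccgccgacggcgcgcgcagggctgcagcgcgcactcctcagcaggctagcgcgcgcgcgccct
Searched on both strands, CAGATG was in 14.4% and TGACG in 17.8% of the 32851 promoter windows of the same length in the table. Of the 9 windows of 8 members (Prox1 has 2 entries), 1 held CAGATG and 1 held TGACG. The GC box of Sp and Klf factors, GGGCGG, was in 7 of the 9 windows, against 32.7% of all windows, and TATAAA was in 1 of 9 (in Prox1), against 12.4% of all. The member windows were 56% to 76% G and C, against a median of 52.4% over all windows. These matches are letters in a window and are no measure of a factor's binding.

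Over all libraries the DG-labelled ones did not stand apart in the granule cell genes, while DG and CA1 differed in opposite directions in untrained and trained libraries. All 9 members were expressed at similar levels in the libraries labelled DG, CA3 and CA1, and for all 9 the DG libraries overlapped both the CA1 and the CA3 libraries. The ratio of the DG mean to the CA1 mean ran from 0.946 for Calb1 to 1.10 for Dsp, and that of the DG mean to the CA3 mean from 0.891 for Plk5 to 1.07 for Calb1. The highest mean was in DG for 4 members (Prox1, Dsp, Fam163b and Wipf3), in CA3 for 3 (C1ql2, Glis3 and Plk5) and in CA1 for 2 (Calb1 and Stxbp6). Over the 9 members, each of the 18 gaps between neighbouring subregion means was smaller than the smaller SD of the 2 subregions beside it, so with trained and untrained libraries together no order among the subregions exceeded the spread between libraries. Of the 14673 genes tested, 1.33% had all DG libraries above all CA1 libraries and 0.245% had all DG libraries above all CA3 libraries; 0 of the 9 members did in either case. Among untrained libraries alone, both DG values lay above all 3 CA1 values for 7 of the 9 members (all but Calb1 and Plk5), against 16.3% of all genes, and the median log2 ratio of the means of DG over CA1 was 0.22. Among trained libraries, all DG values lay below all CA1 values for 5 of the 9 (Prox1, Dsp, Stxbp6, Glis3 and Fam163b), against 12.2% of all genes, and that median was -0.12. In bulk tissue, fewer cells of a type and less RNA per cell cannot be told apart.

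Markers of the neighbouring fields set these levels in context. The 24 other dentate granule genes had a median log2 ratio of DG over CA1 of 0.02 and of DG over CA3 of 0.00, beside 0.05 and 0.01 for the 9 members and 0.00 for both over all genes tested. The 14 CA1 pyramidal markers had a median log2 ratio of DG over CA1 of -0.71, and the 13 CA3 pyramidal markers one of DG over CA3 of -0.03. Against the other field the order differed: CA1 markers were higher in DG than in CA3 for 14 of 14 (median 0.35), and CA3 markers were higher in DG than in CA1 for 11 of 13 (median 0.34). The higher CA1 markers came chiefly from the untrained CA1 libraries, in which the list summed to 6696 to 10346, against 4215 to 4767 in trained CA1, 2624 to 3928 in CA3 and 3304 to 4693 in DG. With both training groups together, granule genes thus did not set the DG-labelled libraries apart from either field, and CA3 markers did not set DG and CA3 apart from each other, so the labels are used below as names of libraries.

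**Figure D1:**
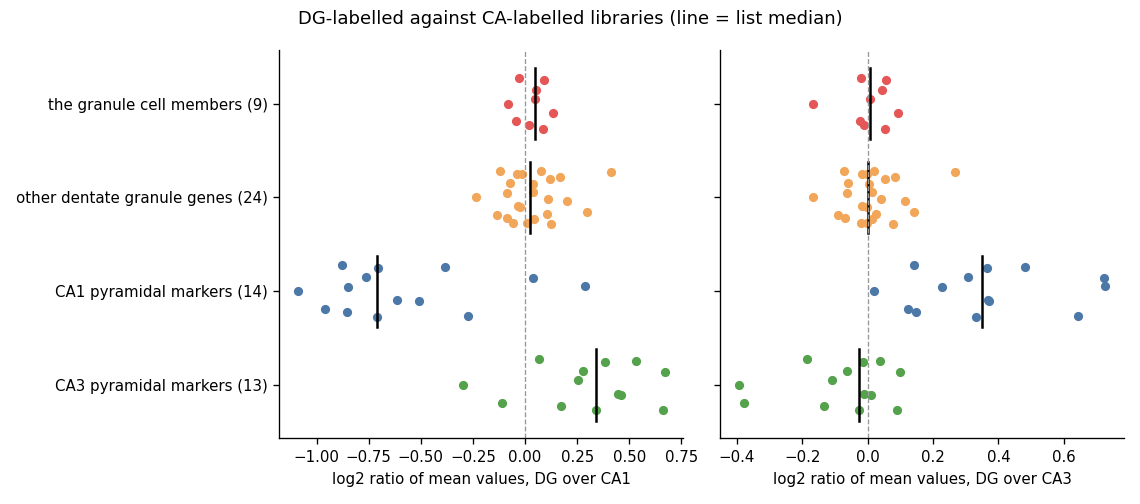
Each point is 1 gene, placed by the log2 ratio of its mean value in the 5 DG-labelled libraries to that in the 6 CA1 (left) or 5 CA3 (right) libraries, and black lines are list medians. The 9 granule cell members and the 24 other granule genes lie around 0 on both sides (medians 0.05 and 0.02 on the left, 0.01 and 0.00 on the right), while the CA1 markers lie mostly below 0 on the left (median -0.71).

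Among the transcription factors, Prox1 had a mean of 3665 ± 445 (SD, n = 5) in DG, 3648 ± 869 (n = 5) in CA3 and 3536 ± 271 (n = 6) in CA1. Its values were 4118 and 4183 in the untrained DG libraries and 3365, 3367 and 3292 in the trained ones. In CA3 they were 4786 and 3902 in untrained mice and 4002, 2862 and 2690 in trained mice, so both its highest and its lowest library carry the label CA3. The CA1 libraries held 3669, 3861 and 3052 (untrained) and 3483, 3618 and 3534 (trained), within the range of the other subregions. Glis3, the other factor, was at 783 and 638 in untrained and 590, 617 and 548 in trained DG. In CA1 it was at 523, 499 and 506 in untrained and 675, 719 and 667 in trained mice, and here the 2 groups did not overlap. In CA3 it was at 719 and 587 in untrained and 842, 630 and 453 in trained mice. Its lowest and highest libraries were both from trained CA3.

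C1ql2, the mossy fibre synapse protein, had nearly the same mean everywhere, with 691 ± 39.4 (SD, n = 5) in DG, 701 ± 147 (n = 5) in CA3 and 668 ± 73.1 (n = 6) in CA1. Its DG values were 705 and 697 in untrained and 747, 656 and 651 in trained mice, so the groups overlapped. Its CA3 values were 827 and 679 in untrained and 868, 613 and 516 in trained mice, and its CA1 values 639, 667 and 573 against 763, 743 and 621. Calb1, the calcium buffer, was the one member with both a lower mean in DG than in CA1 and a higher one than in CA3, at 834 ± 72.6 (n = 5), 882 ± 55.1 (n = 6) and 781 ± 145 (n = 5). Calb1 was at 920 and 814 in untrained and 862, 723 and 851 in trained DG, at 926 and 791 against 918, 673 and 599 in CA3, and at 908, 934 and 792 against 933, 853 and 869 in CA1. The groups of Calb1 overlapped in all 3 subregions.

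Dsp, the desmosomal plaque protein, had the highest ratio of DG to CA1 of the members. It was at 2234 and 2686 in untrained and 2055, 2060 and 1871 in trained DG, with every trained library below both untrained ones. In CA3 Dsp was at 2682 and 2189 against 2286, 1734 and 1688, and in CA1 at 1953, 2061 and 1608 against 2100, 2124 and 2060. Plk5, the neuronal polo-like kinase and the member with the lowest values, was at 173 and 211 in untrained and 228, 195 and 212 in trained DG. Plk5 was at 245 and 249 against 269, 211 and 169 in CA3, and at 171, 182 and 220 against 214, 235 and 227 in CA1. The trained and untrained libraries overlapped for Plk5 in every subregion.

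The remaining members serve the synapse and the cytoskeleton or are little known, and they had the widest gaps between trained and untrained DG. Fam163b was at 3742 and 3466 in untrained and 2504, 2414 and 2361 in trained DG, and at 3655 and 3028 against 3001, 2257 and 1992 in CA3. Wipf3, which acts on actin, was at 6674 and 6559 in untrained and 4718, 4931 and 4827 in trained DG, and the 2 untrained values were the highest of all 16 libraries. In CA3 Wipf3 was at 6252 and 5439 against 5195, 4869 and 4973, and in CA1 at 5550, 5674 and 5864 against 4898, 5250 and 5588, where the groups overlapped. Stxbp6, the SNARE-binding amisyn, was at 2203 and 1986 against 1576, 1488 and 1576 in DG, at 2286 and 2003 against 1904, 1419 and 1285 in CA3, and at 1950, 1966 and 1551 against 1758, 1845 and 1854 in CA1. In CA1 Fam163b was at 2847, 2938 and 2465 in untrained and 2728, 2706 and 2658 in trained mice. For Stxbp6 and Fam163b the trained libraries were below the untrained in DG and CA3 and overlapped them in CA1.

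**Figure D2:**
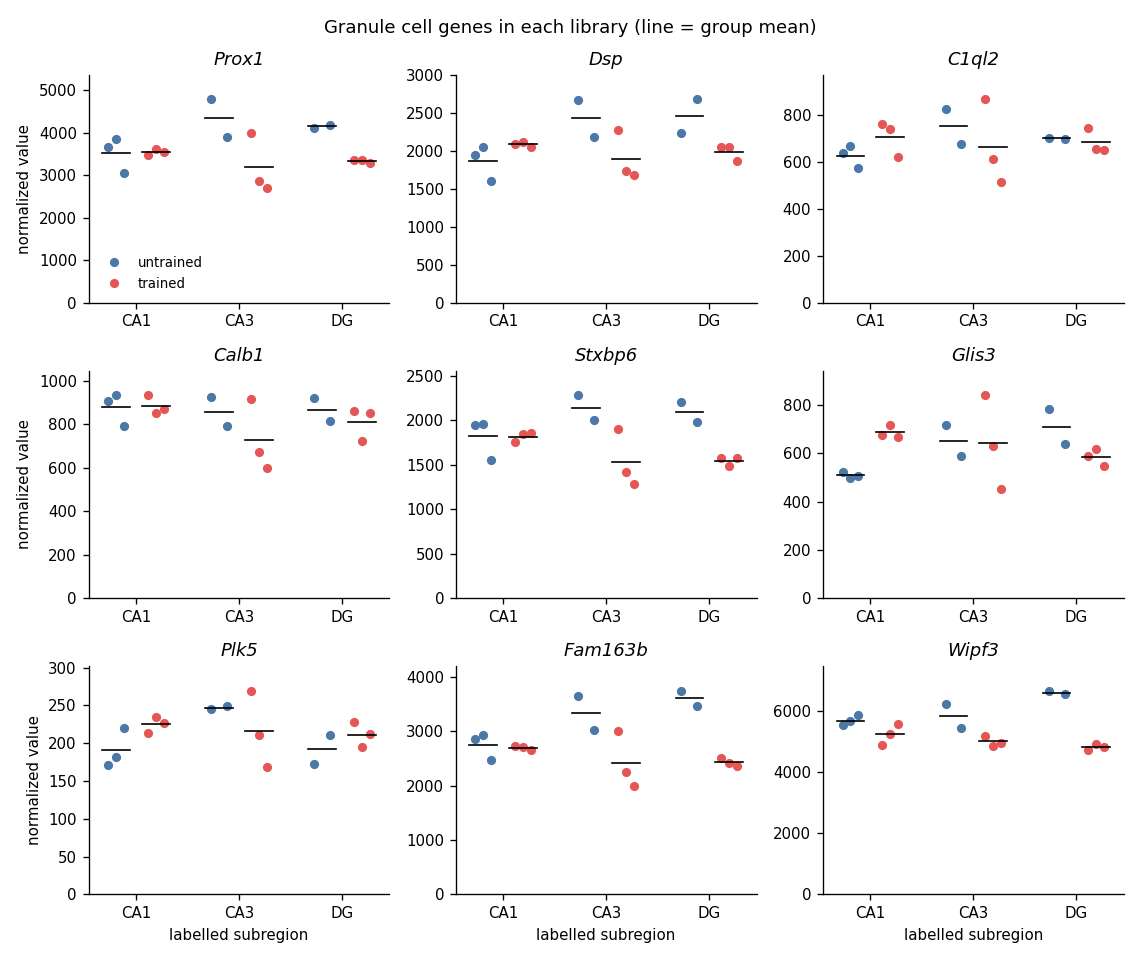
Normalized value (linear axis from 0) of each granule cell gene in each of the 16 libraries, by labelled subregion; blue points are untrained and red points trained mice, and black lines are group means. Subregions overlap for every gene, while trained DG libraries lie below both untrained DG libraries for Prox1, Dsp, Stxbp6, Glis3, Fam163b and Wipf3.

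Per kilobase of merged exon, the members differed more among themselves than across subregions. On this scale Fam163b had a DG level of 979, the highest of the members, followed by Wipf3 at 779, Prox1 at 437, C1ql2 at 345, Stxbp6 at 333, Dsp at 226, Calb1 at 172, Plk5 at 76 and Glis3 at 71.8. Within their families, Prox1 (437 ± 53.1, SD, n = 5) and Nfix (430 ± 27.8) were the highest of 10 granule cell and related transcription factors in DG per kilobase, with a gap between them smaller than either SD, and Prox2, the paralog of Prox1, was the last at 2.42. Wipf3 was the first of 5 genes of the WIP family and its partners, and Glis3 the first of 6 GLIS and GLI factors. Fam163b was 979 per kilobase and its only relative in the list, Fam163a, was 35.2. C1ql2 was second of 8 C1q-like genes and receptors after C1ql3 (891), another secreted mossy fibre protein. Dsp was second of 8 desmosomal genes after Pkp4 (399), and Dsg2, a desmosomal cadherin, was at 7.49 while Dsc2, another, was at 0.516. Plk5 was second of 5 polo-like kinases after Plk2 (320), and Calb1 came after calmodulins and Hpca among 7 calcium buffers, above parvalbumin (Pvalb) and calretinin (Calb2).

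The granule gene levels varied from library to library, most of all within CA3. As a summary, each member's log2 value minus its own mean over the 16 libraries was averaged over the 9 members. CA3 of untrained mouse 1 was the highest at 0.29, with 9 of 9 members above their own mean, followed by CA3 of trained mouse 1 at 0.20 and the untrained DG libraries at 0.18 and 0.16. CA3 of trained mouse 3 was the lowest at -0.38, with 0 of 9 members above their own mean and 7 of 9 at their lowest there, and CA3 of trained mouse 2 was next at -0.20. The trained DG libraries were at -0.04, -0.11 and -0.11, so all 3 lay below both untrained DG libraries. In DG of untrained mouse 1, 8 of 9 members were above their own mean and Plk5 was at -0.29. The CA1 libraries lay between -0.15 and 0.07, with 5, 5 and 2 of 9 members above their own mean in untrained and 5, 7 and 5 in trained mice. The widest spread was therefore within CA3, where the lowest and highest of all 16 libraries were found. The 24 other granule genes moved alike, with a mean deviation of 0.22 in CA3 of untrained mouse 1 and -0.26 in CA3 of trained mouse 3. CA3 pyramidal markers had median deviations of 0.44 and 0.47 in CA3 of trained mice 2 and 3, where the members were lowest, against -0.19 in CA3 of untrained mouse 1. Other libraries did not follow this order: in CA1 of untrained mouse 3 the members were at -0.15 and the CA3 markers at -0.46, and in CA3 of trained mouse 1 they were at 0.20 and 0.05. The 8 oligodendrocyte markers summed to 27284 in CA3 of trained mouse 3 and to 26843 in CA1 of untrained mouse 3, where the members were low, and to 12945 in CA3 of untrained mouse 1, where they were highest. Their sums were 20186 in CA3 of trained mouse 2 (members at -0.20) but 21592 in CA3 of untrained mouse 2 (members at 0.07) and 20922 in DG of untrained mouse 3 (members at 0.16), and 14439 to 18165 in the other 10 libraries. In DG the median deviations of the CA3 markers were 0.30, 0.32 and 0.09 in trained and 0.03 and -0.07 in untrained mice. The part of tissue composition in these levels was not tested.

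**Figure D3:**
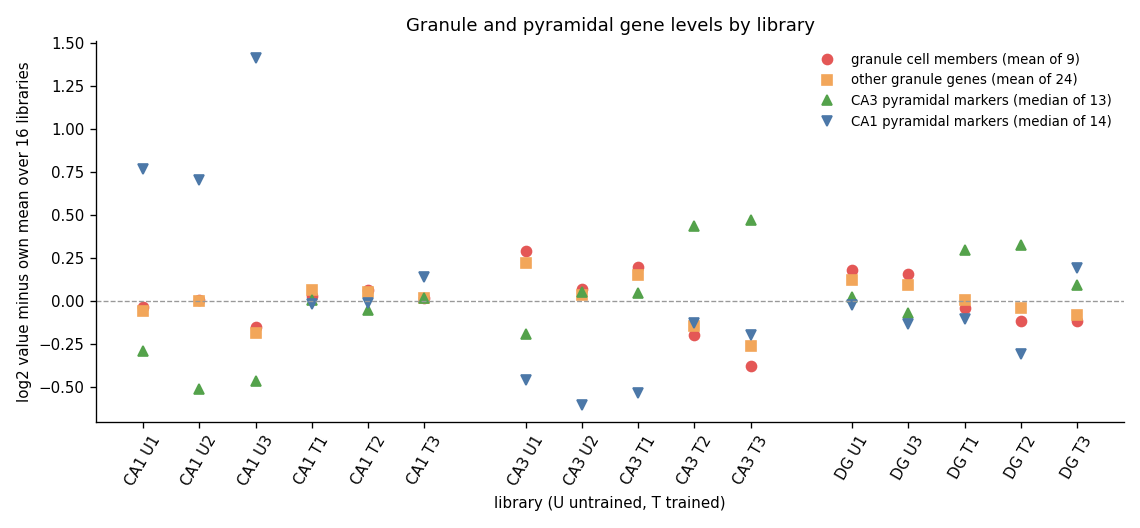
For each library (U untrained, T trained, numbered by mouse), points give the log2 value minus each gene's own mean over the 16 libraries, averaged over the 9 granule members and the 24 other granule genes, or as the median over 13 CA3 and 14 CA1 markers. Members and other granule genes are highest in CA3 of untrained mouse 1 (0.29 and 0.22) and lowest in CA3 of trained mouse 3 (-0.38 and -0.26), where the CA3 markers are at 0.47.

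Within single mice as labelled, DG and CA1 stood in opposite order in untrained and trained animals. In untrained mice 1 and 3, the mean log2 difference of DG minus CA1 over the members was 0.22 and 0.31, with 9 of 9 and 8 of 9 members higher in DG. In trained mice 1, 2 and 3 it was -0.07, -0.18 and -0.13, with 1, 0 and 1 of the 9 members higher in DG. DG minus CA3 was -0.11 in untrained mouse 1 and -0.24, 0.08 and 0.26 in the trained mice, with no common direction. In untrained mouse 1, Xist was at 10588 in the CA3 library and at 25.5 in the DG library. In trained mouse 3, Ddx3y was at 255 in DG, against 101 in CA1 and 92.9 in CA3. Whether libraries with the same label came from 1 mouse was not tested. In all 5 mice with both libraries, the subregion with the higher members was the one with many genes at 0: 7567 to 8636 in untrained DG against 4774 to 5425 in CA1 of the same mice, and 8323 to 9759 in trained CA1 against 3479 to 5944 in trained DG. The part of this property in the order was not tested. These differences use the same libraries as the training comparisons below and are not independent of them.

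In DG, 4 of the 9 members fell in trained mice, and none rose. By limma with Benjamini-Hochberg adjustment over all 13935 genes tested, 3.39% were called at an adjusted p under 0.05 and 1.66% were called and lower in trained mice. Fam163b was lower by a log2 difference of -0.57 (SE 0.063, adjusted p = 0.000228), with means of 2426 ± 72.3 (SD, n = 3) in trained and 3604 ± 195 (n = 2) in untrained mice. Wipf3 was lower by -0.46 on the log2 scale (SE 0.054, adjusted p = 0.000346), with means of 4825 ± 106 and 6616 ± 81.6. Both were called under every alternative fit of the DG comparison that left at least 2 libraries in each group. None of those fits held a term for sex-linked transcripts or for genes at 0. In DG, Xist and the number of genes at 0 split the libraries as training does. In the fit over all subregions with a sex-linked score, neither gene was called. Stxbp6 was lower by -0.44 (SE 0.069, adjusted p = 0.00445), and this call was lost without trained mouse 2 and when all 16 libraries shared one fit, with adjusted p up to 0.099 in those fits. Prox1 was lower by -0.31 (SE 0.056, adjusted p = 0.00965), with a log2 difference between -0.32 and -0.30 in every alternative. Its call was lost without any 1 of the 3 trained mice and in the shared fit, with adjusted p up to 0.265. Dsp had a difference of -0.30 (adjusted p = 0.0511) and Glis3 one of -0.27 (adjusted p = 0.129). Dsp was called under 4 of 11 alternatives (no filter on low values, the replicate block, upper-quartile rescaling, and without untrained mouse 1), and Glis3 under 1 (without untrained mouse 3). C1ql2 at -0.04 (adjusted p = 0.86, 95% interval -0.22 to 0.14), Calb1 at -0.10 (adjusted p = 0.611) and Plk5 at 0.14 (adjusted p = 0.604) did not pass the test. The trained libraries were all below the untrained for 6 of the 9 members (Prox1, Dsp, Stxbp6, Glis3, Fam163b and Wipf3), against 18.2% of all genes tested.

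Other granule genes and related factors in DG are given beside these. Of the 24 other granule genes, 20 had a difference below 0, 2 fell (Sema5a, -0.28, and Neurod2, -0.27) and 0 rose, with a median of -0.19 against 0.00 over all genes. Neurod2, a basic helix-loop-helix factor of excitatory neurons, and Prox1 were the only ones of 10 granule cell transcription factors to pass the test (Neurod2 is on both lists). Stxbp5l, a tomosyn that restrains vesicle release, fell with Stxbp6 (-0.27, adjusted p = 0.024), and these were 2 of 7 syntaxin-binding genes. None of the 7 calcium buffers, 7 C1q-like genes, 5 polo-like kinases or 5 desmosomal genes that were tested passed. The CA2 markers were below 0 in 7 of 8 with 2 called and a median of -0.28, and the thalamic markers in 7 of 8 with 2 called and a median of -0.39. The CA3 markers had a median of 0.32 with 1 of 13 called and lower, and the 6 endothelial markers were all below 0 with a median of -0.41 and 1 called (Flt1, -0.94). Their part in the granule gene differences was not tested.

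In CA1, Glis3 rose in trained mice and no other member passed the test. Here 5.23% of 13588 genes were called, and 3.53% were called and higher in trained mice. The log2 difference of Glis3 was 0.43 (SE 0.073, adjusted p = 0.00128 by limma), with means of 687 ± 28.1 (SD, n = 3) in trained and 509 ± 12.3 (n = 3) in untrained mice. It was also the only member with all trained libraries above all untrained ones, against 12.9% of all genes. When all 16 libraries shared one fit, this call was lost (adjusted p = 0.189), and it held when any 1 mouse was left out. Glis3 had a median of 675 in the 7 libraries with many genes at 0 and of 548 in the other 9, a split that in CA1 is the split by training. Of the other members, Plk5 (0.24, adjusted p = 0.267), C1ql2 (0.18, adjusted p = 0.281) and Dsp (0.17, adjusted p = 0.240) had differences above 0, and Wipf3 (-0.12, adjusted p = 0.184) one below 0. Prox1, Calb1, Stxbp6 and Fam163b lay between -0.02 and 0.01.

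Among the other granule genes in CA1, 4 of 24 rose and 1 fell, with a median of 0.07. Pitpnm2, a phosphatidylinositol transfer protein, rose by 0.52, Pdzd2 by 0.62 and Maml2, a Notch coactivator, by 0.48, with adjusted p of 2.07e-06, 1.78e-05 and 0.000486. Lct, lactase, was at -0.20 and was named after its value was seen. The transcription factors Nfix (0.28) and Zbtb20 (0.30) also rose, as 2 of 10. CA1 pyramidal markers moved strongly in the same comparison, with 13 of 13 tested below 0, 4 called and a median of -0.81, and 6 of 13 CA3 markers rose with 1 lower and a median of 0.37. The part of these marker shifts in the Glis3 difference was not tested.

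In CA3, 0 of the 9 members passed the test, and 0.852% of the 13848 genes tested were called. Of the 13848 genes, 0.116% were called and lower in trained mice. By limma, 4 members (Dsp, Stxbp6, Fam163b and Wipf3) had an unadjusted p under 0.05 and a difference below 0, as did 6.42% of all genes tested, and 15.8% of all genes had an unadjusted p under 0.05 in either direction. All 9 differences were below 0, from -0.50 for Stxbp6 (SE 0.167, adjusted p = 0.230) through -0.48 for Fam163b (adjusted p = 0.290) and -0.46 for Prox1 (adjusted p = 0.329) to -0.06 for Glis3 (adjusted p = 0.939). For Stxbp6, Fam163b and Wipf3 every trained library was below both untrained ones, against 16.7% of all genes. The interval of Prox1 ran from -0.94 to 0.02 and that of C1ql2 from -0.81 to 0.41, so these intervals held 0 as well as differences of the size seen in DG. The outcome changed without trained mouse 1, whose CA3 library had the highest granule levels of the trained ones. Then 680 genes and 5 members (Prox1, Dsp, Calb1, Stxbp6 and Fam163b) were called. It also changed with the replicate number as a block, where 1160 genes and 5 members (Prox1, Dsp, Stxbp6, Fam163b and Wipf3) were called. Of the 24 other granule genes, 21 were below 0 with a median of -0.22 and 0 called. CA3 markers had a median of 0.60 with 1 called and higher (Cdh24, 1.13), choroid plexus markers were below 0 in 7 of 7, and Ttr, the transthyretin of that tissue, differed by -3.29, values whose part was not tested.

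**Figure D4:**
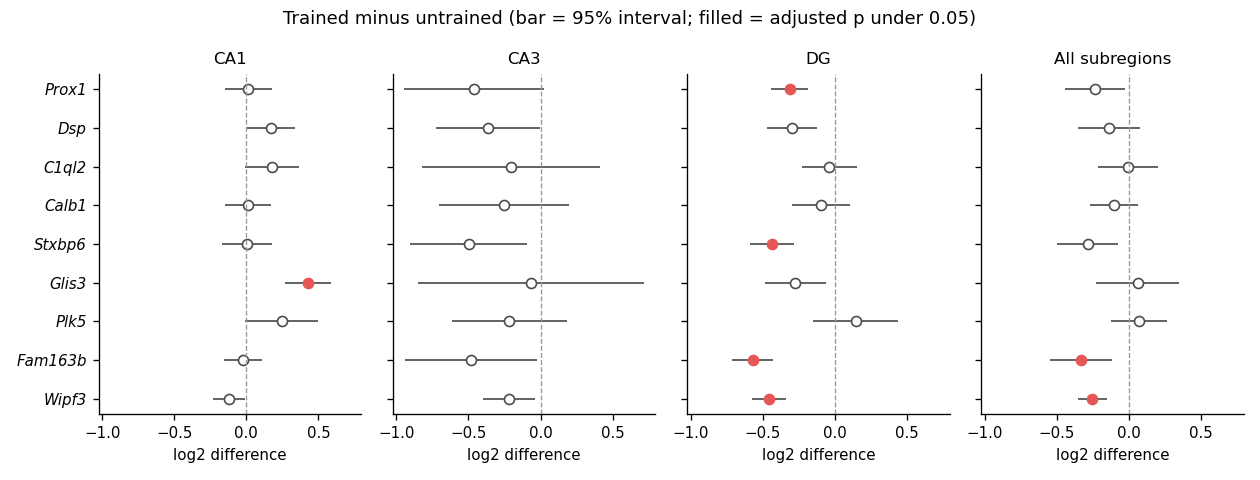
Log2 difference of trained minus untrained libraries for each granule cell gene, with its 95% interval from limma, in CA1, CA3, DG and over all subregions with subregion as a term; filled points have an adjusted p under 0.05. The called points are Glis3 in CA1 (0.43), Fam163b (-0.57), Wipf3 (-0.46), Stxbp6 (-0.44) and Prox1 (-0.31) in DG, and Fam163b (-0.33) and Wipf3 (-0.25) over all subregions.

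Over all subregions together, Wipf3 and Fam163b fell in trained mice, and the call of Fam163b was close to the threshold. In this fit with a term for subregion, 10.3% of 14673 genes were called and 4.06% were called and lower in trained mice, and 2 of the 9 members were among them. Wipf3 differed by -0.25 (SE 0.046, adjusted p = 0.00123) and Fam163b by -0.33 (SE 0.098, adjusted p = 0.0451). The Fam163b call was lost under 7 of 15 alternatives, with adjusted p up to 0.288: with no filter on low values, with the sex-linked score, without the 2 libraries with Xist and Ddx3y above 150, and without trained mouse 2 or 3 or untrained mouse 1 or 2. Wasl, which encodes N-WASP, a partner of WIP proteins, fell as well (-0.17, adjusted p = 0.0039), and these were 2 of 4 tested genes of that family. Stxbp6 (-0.29, adjusted p = 0.0729) and Prox1 (-0.23, adjusted p = 0.131) did not pass, nor did Calb1 (-0.10), Dsp (-0.14), C1ql2 (-0.0069), Glis3 (0.06) or Plk5 (0.07). With a sex-linked score as a covariate, 0 genes were called by limma (1702 had an unadjusted p under 0.05), and Wipf3 had an adjusted p of 0.242. Without the 2 libraries with Xist and Ddx3y above 150, Wipf3 was the 1 member called. Of the 24 other granule genes, Lct (-0.33, adjusted p = 0.00501) and Slc29a4, a monoamine transporter (-0.23, adjusted p = 0.0393), fell and none rose. Libraries of 1 mouse enter this fit as if independent; with mouse as a random effect the estimated correlation within a mouse was -0.035, which makes the test no stricter, and 1758 genes were called in place of 1517.

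Tests of the difference itself set the CA1 and DG effects apart for Wipf3. The training effect in CA1 minus that in DG was 0.33 on the log2 scale for Wipf3 (SE 0.085, adjusted p = 0.0345), where 2.75% of 14673 genes were called. It was no longer called without either of trained mice 2 and 3 or untrained mice 1 and 2, with upper-quartile rescaling, or without the 2 libraries with Xist and Ddx3y above 150 (adjusted p up to 0.144). Glis3 had the largest difference of the members at 0.70 (SE 0.255, adjusted p = 0.172), followed by Fam163b at 0.55 (SE 0.180, adjusted p = 0.126), and neither passed. For these the rise in CA1 or the fall in DG is therefore not shown to differ between the subregions. Of the other granule genes, Maml2 at 0.72 and Il16, a cytokine precursor, at 0.45 passed this test. Between CA3 and DG 0 members were called (0.164% of genes), and between CA1 and CA3 0 members were called (0.0273% of genes).

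The genes with the most similar profiles were found by the mean absolute difference of centred log2 values over the 16 libraries, among 10767 genes with a mean value of at least 50. For Prox1 this was Plekha2 (0.046), for Dsp Tiam1 (0.058), for C1ql2 Gpc4 (0.057), for Calb1 Rras2 (0.051) and for Wipf3 Cdk13 (0.045). For Fam163b it was Igfbp5 (0.053), for Glis3 Grm2 (0.082), for Plk5 Ehbp1l1 (0.088) and for Stxbp6 another member, Fam163b (0.060). Between members, Prox1 and Fam163b (0.060), Stxbp6 and Fam163b (0.060) and Prox1 and Stxbp6 (0.063) were the closest, and Plk5 and Fam163b were the farthest apart (0.238). Of the 9 members, only Stxbp6 had another member as its nearest gene. These measures describe 16 libraries that share animals and scaling.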

How the data were processed

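RNA from dorsal DG, CA3 and CA1, dissected from ArcCreERT2::eYFPflx mice, was depleted of ribosomal RNA and sequenced in 16 libraries. Per the labels and the study's methods, the authors used bcl2fastq 2.20, FastQC, Trim Galore, STAR, Salmon and DESeq2. The labels name the build GRCm38, while the methods pair the names of different builds, and the values are matched here by symbol. The deposited values are normalized estimated counts per gene, not whole, and are treated here as a signal. Median-of-ratios factors computed from them were all 1.00000, so they hold that scaling already, and whole reads were not recovered; a count test was therefore not run. The sums of 7607326 to 7984931 per library do not give the read depth, and intervals cover the spread between libraries only.

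Groups came from the titles. Trained and untrained libraries were compared within each subregion, over all subregions and between subregions (interactions) by limma 3.58.1 in R 4.3.3 on log2(value + 2), with trend and robust empirical Bayes, two-sided, Benjamini-Hochberg adjusted over all genes tested. A log2 difference on this scale understates changes of low genes. Genes needed a value of at least 10 in at least 3 (CA1) or 2 libraries. The test was checked on simulated data. Named genes were the 9 members, their nearest profiles, at most 3 called genes per list and comparison, and families by value per kilobase of merged exon (GENCODE vM21). Members and lists (25) were chosen with earlier results of these data known. Alternatives were another pseudocount (0.5), no filter, 2 rescalings, each mouse left out, the replicate number as a block, one fit of all libraries, mouse as a random effect, a sex-linked score, a term for genes at 0, and 2 libraries left out; upper-quartile rescaling and the last were chosen after seeing the data. Same-numbered trained and untrained libraries did not deviate together, and neither did libraries of the same labelled mouse. Promoter sequences are from RefSeq (GRCm38.p6); Calb1 has no entry. The libraries of a group came from different mice by their titles, and no pair held identical values. Some items of the lists are not reported here.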

Additional observations from a re-analysis of the deposited data

Results flagged for a closer look

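Dsp in CA1 of untrained mouse 3 lay apart from the other 5 CA1 libraries at a normalized value of 1608, the lowest of the 6, by Dixon's test. In all, 27 groups of 5 or 6 libraries were tested in this way, and chance flags about 1 in 20. The log2 difference of the CA1 training effect minus the DG training effect for Wipf3 was 0.33 by the interaction test, with an adjusted p of 0.0345 by limma; the DG effect was -0.46 and the CA1 effect -0.12, and DG was lower in 3 of 3 trained libraries than in both untrained ones.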

How the results depend on the processing

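Of the 8 member results that passed the test, 21 of 98 alternatives lost the call and none changed its sign. Of the 31 member results that had not passed, 19 of 379 alternatives gained a call and 23 changed sign. These counts cover all members in CA1, CA3, DG and over all subregions. Of the tests between subregions they cover only Glis3, Fam163b and Wipf3 for CA1 against DG. Leaving out 1 mouse gave 339 to 905 called genes in CA1, 7 to 680 in CA3, 28 to 1758 in DG, 438 to 1843 over all subregions, 24 to 448 for CA1 against DG, 0 to 72 for CA3 against DG and 0 to 69 for CA1 against CA3. In a group left with 1 library, that library is assumed to vary like the others. Called members then ranged from 0 to 5 in CA3, 2 to 5 in DG, 1 to 3 over all subregions, 0 to 2 for CA1 against DG and 0 to 3 for CA1 against CA3; the lowest DG counts came without trained mouse 2, and the highest CA3 counts without trained mouse 1. With no filter on low values, 1877 genes were called in CA1, 2039 for CA1 against DG, and 1 member over all subregions. One fit of all libraries called 422 genes in CA3, 0 members in CA1 and 2 in DG.

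With the replicate number as a block, 1160 genes and 5 members were called in CA3, 10 genes for CA3 against DG, 9 for CA1 against CA3, and 2 members for CA1 against DG; the sign of Glis3 in CA3 became 0.16 and of C1ql2 over all subregions 0.018. Trained and untrained libraries of the same number did not deviate together (correlations of -0.18 to 0.12 over 7 pairs). Libraries of the same labelled mouse did not either (-0.11 to 0.092 over 14 pairs). This measure therefore cannot show whether the numbers pair the samples. With the sex-linked score, 0 genes (1702 at an unadjusted p under 0.05, limma) and 0 members were called over all subregions, and Glis3 and Plk5 were at -0.34 and -0.21. Without the 2 libraries with Xist and Ddx3y above 150, counts were 958 genes and 1 member over all subregions, 94 genes and 0 members for CA1 against DG, and 0 genes for CA3 against DG, and C1ql2 over all subregions was at 0.066. Upper-quartile rescaling gave 12 genes for CA3 against DG, 7 for CA1 against CA3 and 0 members for CA1 against DG, and put Prox1, Calb1 and Stxbp6 in CA1 at -0.010, -0.011 and -0.019. Fitting the number-of-zeros split as a covariate put Glis3 over all subregions at -0.042. With 1 mouse left out, values that changed sign ranged from -0.087 to 0.083 for Prox1, -0.059 to 0.060 for Calb1, -0.11 to 0.064 for Stxbp6 and -0.10 to 0.026 for Fam163b in CA1, from -0.28 to 0.16 for Glis3 in CA3, and from -0.12 to 0.088 for C1ql2 and -0.010 to 0.19 for Glis3 over all subregions. The cause of these changes was not tested. Median-of-ratios rescaling changed nothing, and the median log2 ratio of DG over CA1 over the members stayed between -0.029 and 0.087, less than 1 SD of the DG libraries from 0.05. The precision is limited by 2 or 3 mice per group.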

Other observations

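Single genes of other lists also passed the training tests, by limma with adjustment over all genes. In CA1 of trained mice Ptgds, a prostaglandin D synthase on the leptomeningeal list, fell by 1.02 on the log2 scale (adjusted p = 1.97e-08), and 2 of 7 genes of that list fell, with 6 of 7 below 0. In the same comparison the immature neuron genes Igfbpl1, Sox11 and Sox4 fell by 2.03, 0.39 and 0.50, as 3 of 8 tested, with a list median of -0.24. Igfbpl1 was near the filter value of 10, at 3.13 to 10.2 in trained and 26.1 to 33.2 in untrained CA1 libraries. The trained CA1 libraries were those with many genes at 0. The astrocyte water channel Aqp4 fell by 0.35 there, the 1 gene of 8 astrocyte markers that passed, and that list had 4 of 8 below 0 and a median of 0.04. Over all subregions Sox4, Sox11 and Dcx, which mark newborn and young neurons, differed by -0.50, -0.50 and -0.27, with adjusted p of 0.000655, 0.00394 and 0.00806, and 4 of 9 tested genes of that list fell. In DG of trained mice Ociad2, on the mossy cell list, rose by 0.60 (393 ± 13.1, SD, n = 3, in trained and 260 ± 29.2, n = 2, in untrained libraries), while 4 of the 6 tested genes of that list were below 0 with a median of -0.21. The thalamic gene Slc17a6 fell by 1.32 there, and 2 of the 8 thalamic markers passed, both lower. In CA3, Sst, the peptide of a class of interneurons, rose by 0.82, the 1 gene of 8 interneuron markers that passed.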
